A study of Mus musculus with 96 samples.

Results

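The primary-active ion pumps of neurons in the lateral superior olive (LSO), a nucleus of the auditory brainstem, were examined as genes of 3 pump types. Members were chosen by name, namely protein-coding genes of the Gencode vM21 annotation whose symbol begins with Atp6v or Atp6ap (proton pump), Atp1a or Atp1b (sodium pump), or Atp2a, Atp2b or Atp2c (calcium pump). They were 43 of the 38887 genes in the expression table, with 26 proton, 8 sodium and 9 calcium pump genes. *Atp6v1fnb* is listed with the proton pump because of its symbol, which is that of a neighbour of *Atp6v1f*, and it encodes no subunit.

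Each library held the cytoplasm of a single LSO neuron that was aspirated through the patch pipette after a whole-cell recording (patch-seq). The mice were C57BL/6J of both sexes, without a further allele or agent, at about postnatal day 11, and the neurons were recorded in acute coronal brainstem slices. Neurons were grouped by their labelled firing pattern: 41 Onset and 11 Sustained neurons, together the 52 principal LSO neurons (pLSOs), and 28 Delayed neurons, the lateral olivocochlear neurons (LOCs). The negative controls (NCs) were 8 pipettes with internal solution whose tip had touched a slice. Among the 96 labelled libraries, 8 were left out by a list made with earlier results of these data known, namely 6 labelled as neurons and 2 labelled as NCs, and the grounds for each were not recomputed. No label names an animal, so every group counts as 1 sample, no test was made between groups, and the spread given is that between neurons.

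The proton pump, or V-ATPase, uses ATP to acidify vesicles and lysosomes, and its gradient loads transmitter into synaptic vesicles. It has a cytosolic V1 part that binds ATP and a membrane part, V0, that conducts protons. The sodium pump, or Na+/K+-ATPase, is made of a catalytic α and an accessory β subunit and restores the ion gradients after action potentials. Calcium pumps remove Ca2+ from the cytosol across the plasma membrane (PMCA), into the endoplasmic reticulum (SERCA) or into the Golgi apparatus (SPCA).

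The deposited values are TPM as whole numbers, and each library summed to between 999773 and 1000026 TPM. Their scale was not the same for all genes. The steps between low values showed that reads were divided by a length that only increases along the table and is not the gene's own. For the 24 pump genes described singly, the annotated exon length was 2.29 to 884 times the length that had been used. *Atp6v1b2*, with 5305 bases of exons, was divided as if it had 6, and *Atp6v0b*, with 2051 bases, as if it had 363. Among ribosomal protein genes, whose proteins are needed in equal amounts, the median was 959 TPM for 12 that stand early in the table and 5.66 TPM for the 60 others. After the reads were recovered from the steps and divided by each gene's own exon length (rescaled TPM), these medians were 329 and 272. Levels of different genes are therefore compared only in rescaled TPM, whereas differences between groups for the same gene are given in TPM as deposited.

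Recovered reads per library had a median of 705523 in Onset neurons (144735 to 2669088), 616102 in Sustained neurons (140622 to 1410559) and 470549 in LOCs (238222 to 1459530). NCs had a median of 25286.5 reads (3912 to 112881). A gene was counted as detected at 1 TPM or more, but in the median neuron 1 read was worth between 0.0674 TPM (*Atp6v1a*) and 13 TPM (*Atp6v1f*). Shares of neurons are therefore also given at 50 RPM or more (reads per 1000000 recovered reads), a limit chosen after the data were seen. At least 1 of 6 neuron markers was detected in each of the 80 neurons. In pLSOs their summed rescaled level had a median of 2927 TPM, in LOCs of 2967. NCs had a like median of 2670 TPM (8.64 to 8392) and at least 1 of these markers in each of 8 libraries, but a median of 2.5 markers against 5 in neurons. The sum thus does not set neurons apart from NCs. Each class also showed its own marker genes as named by the study: *Spp1*, *Kcnh7* and *Lpgat1* in 76.9% to 96.2% of pLSOs, and *Calca*, *Ucn* and *Isl1* in 78.6% to 92.9% of LOCs. The pLSO markers were also detected in 3.57% to 46.4% of LOCs and 12.5% to 50% of NCs. The LOC markers were detected in 0% to 28.8% of pLSOs and 0% to 62.5% of NCs. As the study found these markers in the same neurons, they are no independent check.

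**Figure D1:**
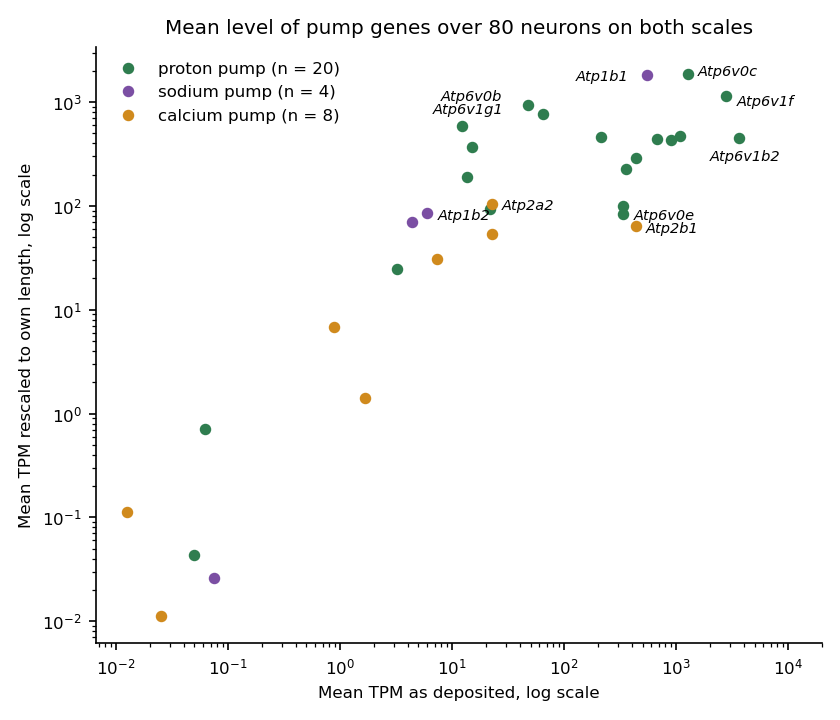
Mean TPM as deposited (x axis, log scale) against mean TPM rescaled to each gene's own exon length (y axis, log scale) over the 80 neurons, 1 point per pump gene for 20 proton, 4 sodium and 8 calcium pump genes detected in any neuron. *Atp6v1b2* lies far to the right of *Atp6v0b* on the deposited scale (3614 against 47.9) and below it on the rescaled scale (455 against 937).

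The 3 pump types differed widely in their level, and the order was proton, sodium, calcium. In Onset neurons the summed rescaled level of the proton pump genes ranged from 155 to 17685 TPM with a median of 9397. In Sustained neurons it ranged from 3208 to 10333 with a median of 7205, and in LOCs from 1996 to 20241 with a median of 8768. The 3 groups thus overlapped over most of their range.

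The summed rescaled level of the sodium pump genes had a median of 2939 TPM in Onset neurons (131 to 7920), 1427 in Sustained neurons (298 to 3793) and 1780 in LOCs (76.1 to 7112). For the calcium pump genes the medians were 213 TPM in Onset neurons (0 to 1579), 302 in Sustained neurons (4.86 to 519) and 73.9 in LOCs (0 to 919). In 75 of 80 neurons the proton pump sum exceeded the sodium pump sum, which exceeded the calcium pump sum. The proton pump comprises more genes than the others, so the order of the sums does not compare the number of pump complexes. Within a neuron the median ratio was 3.72 for proton over sodium and 13.2 for sodium over calcium. In NCs the medians of the 3 sums were 854, 157 and 56.2 rescaled TPM, and the highest proton pump sum was 6469. The order held in 4 of 8 NCs, and the median ratios were 6.85 and 11.6. The order of the medians is thus not particular to neurons.

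**Figure D2:**
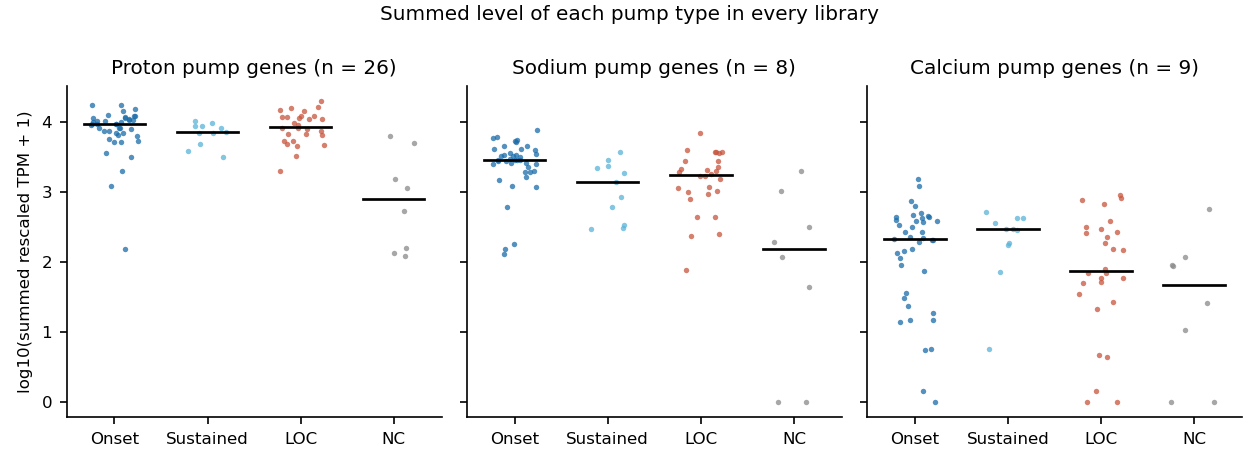
Summed rescaled TPM of the 26 proton, 8 sodium and 9 calcium pump genes in each library (y axis, log10 of the sum plus 1), for 41 Onset, 11 Sustained and 28 LOC neurons and 8 negative controls (NC), with a point per library and a bar at the median. Proton pump sums are highest and calcium pump sums lowest, and the firing classes overlap in each panel.

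Every member is accounted for as follows. No neuron had a value for 8 of the 43 genes, namely *Atp6ap1l*, *Atp6v0d2*, *Atp6v1b1*, *Atp6v1e2*, *Atp6v1fnb*, *Atp6v1g3*, *Atp1a4* and *Atp2c2*, most of which are isoforms known from other tissues. In 80 neurons this allows a share of up to 3.75% of neurons with a listed value for each. It does not limit the share that expressed the gene, since for *Atp6ap1l* 1 read was worth 0.0434 TPM in the median neuron and several reads would be listed as 0. Another 9 genes, among them *Atp6v0a2*, *Atp6v0a4*, *Atp6v1c2*, *Atp1b4*, *Atp2a1*, *Atp2a3*, *Atp2b3* and *Atp2b4*, were detected in 1 to 13 neurons, with mean rescaled levels between 0.0111 and 24.5 TPM. The other 26, of which 17 belong to the proton, 5 to the sodium and 4 to the calcium pump, were detected in at least 25% of a class or differed between groups by 1 or more in mean log2(TPM + 1). Of all 43, 30 were detected in at least 5% of neurons, the filter used for counts across all genes.

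In the sodium pump, 1 accessory subunit made up most of the level. *Atp1b1* (chromosome 1, 164437109 to 164458355, minus strand; coordinates here and further on are GRCm38) encodes the β1 subunit, which takes the catalytic subunit to the membrane. It was detected in every neuron of the 3 classes and at 50 RPM in 40 of 41 Onset, 11 of 11 Sustained and 25 of 28 LOC neurons. Its mean rescaled level over neurons was 1835 TPM, 72.8% of the sodium pump type. The deposited values ranged from 2 to 2136 TPM in Onset neurons with a median of 659. They ranged from 47 to 773 with a median of 247 in Sustained neurons, and from 1 to 1462 with a median of 396 in LOCs. Onset neurons had the highest median, but the classes overlapped over the whole range of the Sustained neurons. The difference in mean log2(TPM + 1) of *Atp1b1* was 0.86 for pLSOs minus LOCs and 1.25 for Onset minus Sustained neurons. With all labelled libraries the second value was 0.93, and among the 17 Onset and 3 Sustained neurons without any microglia marker it was 0.38. The opposite strand of *Atp1b1* carries *Nme7* over 18.7% of its exon bases, and the libraries were not stranded, so reads from this stretch cannot be told apart.

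The β subunits differed between the classes. *Atp1b2* (chromosome 11, 69599736 to 69605942, minus strand) encodes β2, which also serves in cell adhesion and is abundant in astrocytes. The deposited values of *Atp1b2* ranged from 0 to 12 TPM in Onset neurons, from 0 to 17 in Sustained neurons and from 0 to 91 in LOCs, with medians of 0, 0 and 1. It was detected in 17.1% of Onset neurons (95% exact Clopper-Pearson interval 7.15 to 32.1), 36.4% of Sustained neurons (10.9 to 69.2) and 53.6% of LOCs (33.9 to 72.5). These intervals, like all that follow, cover counting error only. By the stricter limit of 50 RPM it was present in 7.32%, 27.3% and 46.4%. Its mean was 12.6-fold higher in LOCs (14.8 TPM) than in pLSOs (1.17 TPM), and without the LOC with the highest value the LOC mean was 12.0 TPM. The difference in mean log2(TPM + 1) was −1.76 for pLSOs minus LOCs. *Atp1b1* made up 97.2% of the summed rescaled β level in Onset neurons, 89.8% in Sustained neurons and 82.4% in LOCs. *Atp1b2* made up 12.6% of the summed rescaled β level in LOCs, but only 0.503% in Onset and 3.24% in Sustained neurons. *Atp1b3*, the β3 form, contributed between 2.26% and 7.00% in the 3 classes and was detected in 12.2% of Onset, 18.2% of Sustained and 28.6% of LOC neurons. In Sustained neurons the mean of *Atp1b3* was 89.0 rescaled TPM, and without the neuron of the highest value it was 24.7.

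As β2 is abundant in astrocytes, markers of these cells were set beside it. Of 8 astrocyte markers, 8 were detected in some pLSO and 6 in some LOC. Their summed rescaled level ranged from 0 to 1169 TPM in pLSOs (median 11.2) and from 0 to 533 TPM in LOCs (median 43.9). The 13 LOCs with *Atp1b2* at 50 RPM and the 15 without it both had a median of 1 astrocyte marker. No marker at all was found in 2 of these 13 and in 5 of these 15 LOCs. In pLSOs, the 6 neurons with *Atp1b2* at 50 RPM had a median of 1.5 astrocyte markers (mean 2.67) and 0 of them lacked every marker. The 46 pLSOs without it had a median of 1 (mean 1.35), and 13 of them had no marker. *Sox9* was the single astrocyte marker with a difference of 1 or more, and it was higher in LOCs. The part of astrocyte RNA in the *Atp1b2* values was not tested.

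Among 13 listed partners of the sodium pump, 4 passed the filter. The *Fxyd* genes encode small membrane proteins that modulate the pump. *Fxyd6* was detected in none of the 41 Onset neurons, which allows a share of up to 7.32%, in 1 of 11 Sustained neurons and in 19 of 28 LOCs (67.9%, 47.6 to 84.1). Its highest deposited value was 0 TPM in Onset and 1 TPM in Sustained neurons, while in LOCs the median was 19 TPM and the highest value 61 TPM. Its difference in mean log2(TPM + 1) was −3.17, pLSOs minus LOCs. *Fxyd7*, the brain form of the family, was detected in 69.2% of pLSOs and 78.6% of LOCs, with a difference of −0.82. In LOCs, *Fxyd6* and *Atp1b2* were together present at 50 RPM in 10 neurons. *Fxyd6* alone was present in 8 LOCs, *Atp1b2* alone in 3 and neither in 7.

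In the calcium pump, the plasma membrane forms differed between the classes in opposite directions. *Atp2b1* (chromosome 10, 98914406 to 99026143, plus strand) encodes PMCA1, the widespread form. Its deposited values had a median of 44 TPM in Onset neurons (0 to 1232), 498 in Sustained neurons (0 to 1002) and 377 in LOCs (0 to 3926). It was detected in 63.4% of Onset neurons (46.9 to 77.9), 90.9% of Sustained neurons (58.7 to 99.8) and 89.3% of LOCs (71.8 to 97.7). With 50 RPM as the limit, these shares were 46.3%, 72.7% and 75.0%. The difference in mean log2(TPM + 1) was −2.42 for pLSOs minus LOCs and −2.72 for Onset minus Sustained neurons. Between Sustained neurons and LOCs it was −0.27, so the Onset neurons were the class with the low level.

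*Atp2b2* (chromosome 6, 113743831 to 114042613, minus strand) encodes PMCA2, a form with rapid kinetics that is known from auditory hair cells and cerebellar Purkinje cells. Its deposited values had a median of 10 TPM in Onset neurons (0 to 176), 13 in Sustained neurons (0 to 258) and 0 in LOCs (0 to 60). The gene was detected in 73.2% of Onset (57.1 to 85.8), 72.7% of Sustained (39 to 94) and 42.9% of LOC neurons (24.5 to 62.8). The shares at 50 RPM were 56.1%, 54.5% and 35.7%, with overlapping intervals. The mean was 2.50-fold higher in pLSOs (28.7 TPM) than in LOCs (11.5 TPM), and the difference in mean log2(TPM + 1) was 1.34. Onset and Sustained neurons differed by −0.27.

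The leading PMCA gene of a neuron also differed between the classes. *Atp2b2* led in 20 and *Atp2b1* in 15 of the 38 Onset neurons with any PMCA gene. *Atp2b1* led in 8 of 11 Sustained neurons and in 22 of 26 LOCs. As a share of the summed rescaled level, *Atp2b1* had 33.3% in Onset neurons, 39.7% in Sustained neurons and 76.2% in LOCs. In Sustained neurons *Atp2b2* had the larger share (57.7%) although *Atp2b1* led in more neurons, and without the neuron with the highest *Atp2b2* value the mean of that gene was 67.1 instead of 108 rescaled TPM. Spearman's rho between the rescaled levels of *Atp2b1* and *Atp2b2* was −0.01 across the 80 neurons, in each of which both values come from the same library. *Atp2b3* and *Atp2b4*, the other PMCA genes, were rarely detected and made up at most 10.7% and 3.01% of the level.

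**Figure D3:**
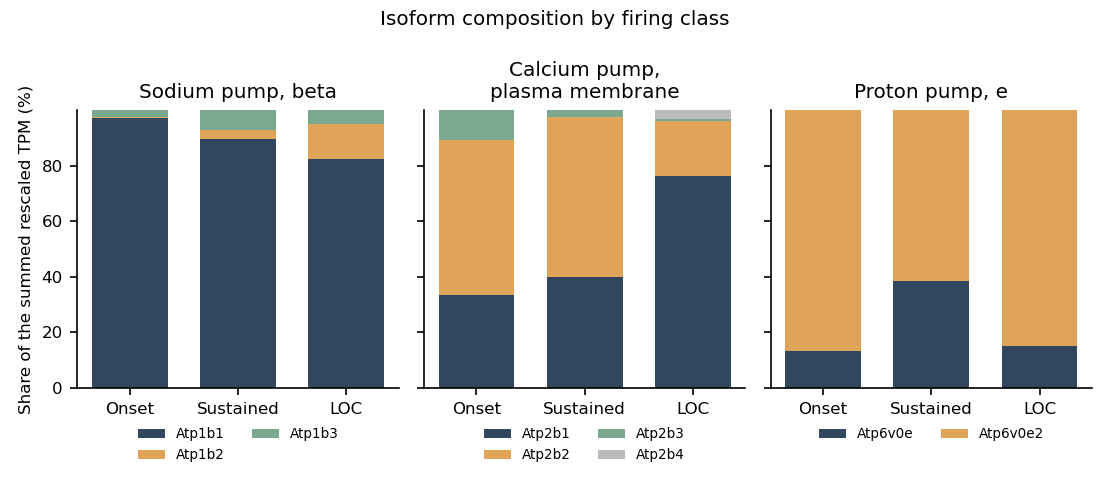
Share of each gene in the summed rescaled TPM (y axis, percent) of sodium pump β subunits, plasma membrane calcium pumps and proton pump subunit e, for 41 Onset, 11 Sustained and 28 LOC neurons, with a stacked bar per class. *Atp1b1* fills most of the first panel, and *Atp2b1* takes 76.2% of the second panel in LOCs against 33.3% in Onset neurons. *Atp6v0e* has its largest share in Sustained neurons (38.6%), where *Atp6v0e2* has 61.4%.

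*Atp2a2* (chromosome 5, 122453513 to 122502225, minus strand) encodes SERCA2, which refills the endoplasmic reticulum. It had the highest mean of the calcium pump genes over all neurons (106 rescaled TPM) and in Onset neurons (151). In LOCs *Atp2b1* was higher (101 against 62.7 for *Atp2a2*). In Sustained neurons *Atp2b2*, *Atp2b1* and *Atp2c1* were higher (108, 74.5 and 47.6 against 44.9). *Atp2a2* made up at least 99.8% of the SERCA level in each class. The deposited values had a median of 12 TPM in Onset neurons (0 to 329), 1 in Sustained neurons (0 to 36) and 0 in LOCs (0 to 163). It was detected in 70.7% of Onset (54.5 to 83.9), 63.6% of Sustained (30.8 to 89.1) and 42.9% of LOC neurons (24.5 to 62.8). The limit of 50 RPM gave 56.1%, 36.4% and 28.6%. In NCs the gene was found in 37.5% at both limits (8.52 to 75.5), and at 50 RPM only the Onset share was higher. NCs had a median of 25286.5 reads against 591661 in neurons, so far fewer reads reach 50 RPM in NCs. The shares of neurons and NCs at this limit are thus not on a like footing. Its difference in mean log2(TPM + 1) was 0.79 for neurons minus NCs. The differences in mean log2(TPM + 1) were 1.27 for pLSOs minus LOCs and 1.16 for Onset minus Sustained neurons.

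*Atp2c1*, the Golgi pump SPCA1, was detected in 26.8% of Onset, 45.5% of Sustained and 14.3% of LOC neurons. Its differences were 0.73 between pLSOs and LOCs and −0.83 between Onset and Sustained neurons. On the opposite strand, *Aste1* covers 18.9% of its exon bases.

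Of 15 listed partners of the calcium pump, 10 passed the filter. *Itpr1*, a channel that releases Ca2+ from the endoplasmic reticulum, was detected in 53.7% of Onset neurons (37.4 to 69.3), 18.2% of Sustained neurons (2.28 to 51.8) and 3.57% of LOCs (0.0904 to 18.3). Its deposited values reached 202 TPM in Onset neurons, but 4 TPM in Sustained neurons and 6 TPM in LOCs. The difference in mean log2(TPM + 1) was 1.82 between pLSOs and LOCs and 2.05 between Onset and Sustained neurons. *Itpr1* and *Atp2a2*, which release and take up the same store, were present together at 50 RPM in 6 of 41 Onset neurons. *Atp2a2* alone was present in 17 of these neurons, *Itpr1* alone in 9 and neither in 9.

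*Nptn*, which encodes the PMCA auxiliary subunit neuroplastin, was detected in 90.4% of pLSOs (79 to 96.8) and 67.9% of LOCs (47.6 to 84.1). It differed by 1.40 between pLSOs and LOCs and by 1.41 between Onset and Sustained neurons. *Ryr2*, another release channel, differed by 2.10 between Onset and Sustained neurons and by −0.04 between pLSOs and LOCs. No other listed partner that passed the filter differed by 1 or more in these comparisons.

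**Figure D4:**
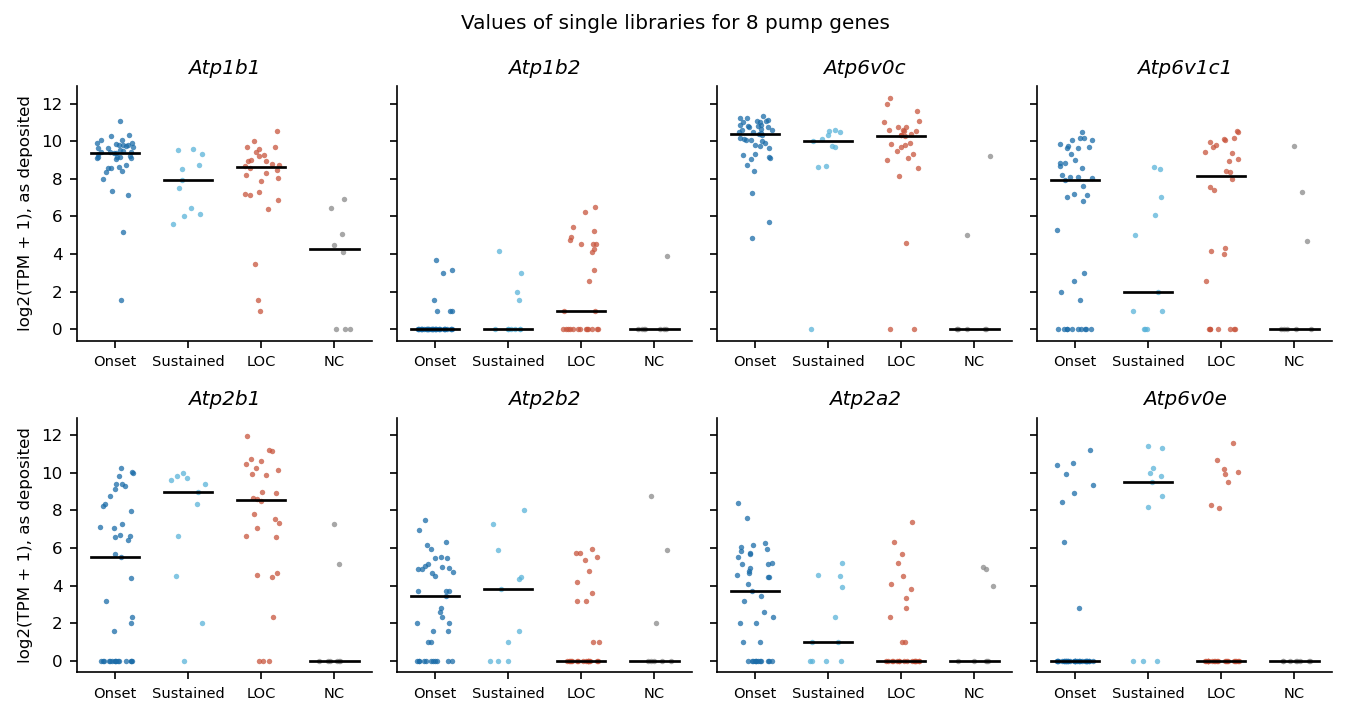
Deposited values of 8 pump genes in single libraries (y axis, log2(TPM + 1)), for 41 Onset, 11 Sustained and 28 LOC neurons and 8 negative controls (NC), with a point per library and a bar at the median. *Atp1b1* and *Atp6v0c* are high in nearly all neurons, *Atp1b2* leaves 0 mainly in LOCs, and *Atp6v0e* is above 0 in 8 of 11 Sustained neurons.

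In the proton pump, a ring subunit of the membrane part had the highest level. *Atp6v0c* (chromosome 17, 24163866 to 24169702, minus strand) encodes subunit c, which forms the rotating ring and is present in several copies per pump. Its mean rescaled level over neurons was 1863 TPM. The deposited values had a median of 1341 TPM in Onset neurons (28 to 2611), 1029 in Sustained neurons (0 to 1552) and 1260 in LOCs (0 to 5093). It was found at 50 RPM in 97.6%, 90.9% and 89.3% of neurons, and its difference between pLSOs and LOCs was 0.45. The next genes were *Atp6v1f*, a small subunit of the central stalk, with 1146 rescaled TPM, and *Atp6v0b*, another ring subunit, with 937. They were followed by the accessory gene *Atp6ap2*, also known as the prorenin receptor, with 764 rescaled TPM and by *Atp6v1g1* with 585. The catalytic subunit *Atp6v1a* had a mean of 188 rescaled TPM, and *Atp6v0c* exceeded it 9.90-fold.

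The pump has 13 subunit positions with a gene in the list, A to H of V1 and a to e of V0. By this count at 50 RPM, a neuron had genes for a median of 9 positions among Onset neurons (0 to 13), 9 among Sustained neurons (5 to 13) and 8 among LOCs (4 to 13). All 13 were found in 5 of 80 neurons. At 1 TPM all 13 were found in 13 neurons. NCs had a median of 1.5 positions (0 to 5). An Onset neuron stood apart, with 0 positions at 50 RPM, 165371 reads and a proton pump sum of 155 rescaled TPM. Its *Atp1b1* level was 128 and its *Snap25* level 2423 rescaled TPM. Leaving it out changed no count of members given for the class comparisons by more than 1.5 times.

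Positions A, D, F, H, b and c have only 1 gene in the list, so no choice of isoform could appear there. Among positions with more genes, *Atp6v1b2*, the B subunit of the brain, *Atp6v1e1* and *Atp6v0d1* had the whole level of theirs. At position C *Atp6v1c1* had 99.98% of the level over neurons, whereas positions a, G and e were mixed. *Atp6v0a1*, which directs the pump to synaptic vesicles among other membranes, led in 31 of 34 Onset, 10 of 11 Sustained and 15 of 19 LOC neurons with any of the 3 a genes. *Atp6v0a2* had 17.8% of the summed a level in Onset neurons, 2.22% in Sustained neurons and 25.9% in LOCs. These shares rest on few neurons, as without the neuron of the highest value the mean rescaled level of *Atp6v0a2* changed from 35.9 to 13.7 TPM in LOCs, from 22.8 to 13.4 TPM in Onset neurons and from 1.62 to 0 TPM in Sustained neurons. *Tcirg1* encodes a further a subunit under a different name and was treated as a partner. At position G the neuronal *Atp6v1g2* and the widespread *Atp6v1g1* led in like numbers of neurons, with *Atp6v1g2* leading in 15 of 30 Onset, 5 of 10 Sustained and 14 of 25 LOC neurons. Of the summed G level, *Atp6v1g1* had 49.0% in Onset neurons, 57.3% in Sustained neurons and 62.0% in LOCs.

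Position e differed between Onset and Sustained neurons. *Atp6v0e* (chromosome 17, 26663231 to 26699647, plus strand) had deposited values with a median of 0 TPM in Onset neurons (0 to 2389), 728 in Sustained neurons (0 to 2687) and 0 in LOCs (0 to 3005). It was detected in 22% of Onset neurons (10.6 to 37.6), 72.7% of Sustained neurons (39 to 94) and 28.6% of LOCs (13.2 to 48.7). With 50 RPM as the limit, the shares were 17.1%, 72.7% and 28.6%, so few neurons had it at a low level. The difference in mean log2(TPM + 1) was −5.30 for Onset minus Sustained neurons, against 0.22 for pLSOs minus LOCs. On rescaled values the first difference was −4.37, and the deposited mean was 4.70-fold higher in Sustained neurons. As 1 read is worth a different TPM for each gene, the 1 added before the log weighs differently between genes. Among the 17 Onset and 3 Sustained neurons in which no microglia marker was detected, the difference of *Atp6v0e* was −2.23 for Onset minus Sustained neurons. Its paralog *Atp6v0e2* led in 20 of 25 Onset, 3 of 8 Sustained and 12 of 15 LOC neurons with either gene. Of the summed rescaled e level, *Atp6v0e* had 13.2% in Onset neurons, 38.6% in Sustained neurons and 15.1% in LOCs. *Atp6v0e2* thus had the larger share in each class, although *Atp6v0e* led in more Sustained neurons.

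*Atp6v1c1*, whose subunit C links V1 to V0, went the other way. Its deposited values had a median of 240 TPM in Onset neurons (0 to 1449), 3 in Sustained neurons (0 to 400) and 290 in LOCs (0 to 1504). At 50 RPM it was found in 63.4% of Onset (46.9 to 77.9), 36.4% of Sustained (10.9 to 69.2) and 60.7% of LOC neurons (40.6 to 78.5). Onset neurons exceeded Sustained neurons by 2.36 in mean log2(TPM + 1) and 4.02-fold in the mean. *Atp6v1e1*, part of the peripheral stalk, had medians of 879 TPM in Onset neurons (0 to 3382), 325 in Sustained neurons (0 to 1862) and 468 in LOCs (0 to 3248), a difference of 2.18 between Onset and Sustained neurons.

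Between pLSOs and LOCs the proton pump genes with a difference of 1 or more were *Atp6v1f* (1.36) and *Atp6ap1* (1.08), which encodes an accessory protein of V0. *Atp6v1f* was detected in 92.3% of pLSOs (81.5 to 97.9) and 75.0% of LOCs (55.1 to 89.3). In the ratio of deposited means, however, the LOCs were 1.12-fold higher, and in rescaled means the pLSOs 1.05-fold. The highest value was 14151 TPM in LOCs and 7974 TPM in Onset neurons. For *Atp6ap1* the mean was 1.15-fold higher in LOCs as deposited and 1.05-fold higher when rescaled.

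All 17 listed partners of the proton pump passed the filter. Between pLSOs and LOCs, *Clcn3*, an endosomal Cl−/H+ exchanger, differed by −2.20 and *Oxr1*, whose product binds V1, by −1.66. *Clcn3* was detected in 55.8% of pLSOs (41.3 to 69.5) and 82.1% of LOCs (63.1 to 93.9), and *Oxr1* in 44.2% (30.5 to 58.7) and 60.7% (40.6 to 78.5). Between Onset and Sustained neurons, *Tcirg1* differed by −1.78, *Clcn5* by −2.07 and *Oxr1* by −1.43. *Tcirg1* was detected in 8 of 41 Onset and 3 of 11 Sustained neurons.

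Genes for lysosomal proteins, among them V-ATPase subunits, are known targets of the transcription factor TFEB, which recognises the palindrome CACGTG, often as TCACGTGA. RefSeq promoters (GRCm38.p6, 250 bases before and 50 after the start) were at hand for 29 of the 43 members. CACGTG, which reads the same on both strands, was found in 6 of these 29 (20.7%), and in 8.09% of all 27025 promoters. It was present in 4 of 19 proton, 1 of 4 sodium and 1 of 6 calcium pump promoters. The longer TCACGTGA, which contains CACGTG, was found in 4 of 29 (13.8%) and in 1.12% of all promoters. These matches are a description and show no binding. The windows of 30 bases are shown with CACGTG in capitals. Of these genes, *Atp2b1*, *Atp6v0e* and *Atp6v1a* differed by 1 or more in mean log2(TPM + 1) in a comparison of firing classes. *Atp6v0b*, *Atp6v0d1* and *Atp1b3* differed by less than 1 in each comparison:
Atp6v0b, chr4:117887348-117887377, minus strand: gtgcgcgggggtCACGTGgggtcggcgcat
Atp6v0b, chr4:117887330-117887359, minus strand: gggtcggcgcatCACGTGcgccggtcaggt
Atp6v0d1, chr8:105566050-105566079, minus strand: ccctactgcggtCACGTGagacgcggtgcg
Atp6v0e, chr17:26676387-26676416, plus strand: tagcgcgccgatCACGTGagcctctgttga
Atp6v1a, chr16:44139373-44139402, minus strand: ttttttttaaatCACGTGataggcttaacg
Atp1b3, chr9:96363919-96363948, minus strand: ccgagcggggcaCACGTGctgccggttccc
Atp2b1, chr10:98914638-98914667, plus strand: cgcgggccgcgtCACGTGaccgcgcccagc

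The members were then counted over all 3 pump types. Between pLSOs and LOCs, 5 of the 30 that passed the filter were higher in pLSOs by 1 or more in mean log2(TPM + 1), and 2 were higher in LOCs. Among all 10319 genes that passed, 6.99% were higher in pLSOs and 4.68% in LOCs. The 5 included *Atp2a2*, *Atp2b2*, *Atp6ap1* and *Atp6v1f*, and the 2 were *Atp1b2* and *Atp2b1*. The median difference was 0.11 over the members and 0.07 over all genes. By pump type it was −0.07 for 18 proton, 0.03 for 6 sodium and 0.48 for 6 calcium pump genes. Counted by type, 2 of 18 proton, 2 of 6 sodium and 3 of 6 calcium pump genes differed by 1 or more in either direction, against 11.7% of all genes. On the rescaled scale, 8 members were higher in pLSOs (11% of all genes) and 3 in LOCs (6.87%), with *Atp1b1*, *Atp2c1*, *Atp6v1h* and *Atp6v1g1* added to those named. The deposited values of pLSOs and LOCs overlapped for each of these genes. The probability that a random pLSO exceeded a random LOC lay between 0.52 for *Atp6v1f* and 0.66 for *Atp2b2* on the side of the pLSOs, and it was 0.32 for *Atp2b1* and 0.30 for *Atp1b2*.

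Between Onset and Sustained neurons, 9 of the 30 members were higher in Onset neurons and 5 in Sustained neurons. The shares of all genes were 4.78% and 10.3%. The 9 included 6 proton pump genes (*Atp6ap1*, *Atp6v1a*, *Atp6v1c1*, *Atp6v1d*, *Atp6v1e1* and *Atp6v1f*), *Atp1b1* and *Atp2a2*. The 5 included *Atp6v0a1*, *Atp6v0e*, *Atp6v1b2* and *Atp2b1*. The median difference was 0.22 over the members and −0.07 over all genes, with 0.63 for the proton, −0.36 for the sodium and −0.15 for the calcium pump genes. Rescaled values gave 9 higher in Onset neurons (7.45% of all genes) and 6 in Sustained neurons (16.4%). The group of 11 Sustained neurons is small, and a single neuron moves a share by 9.09 percentage points.

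Microglia markers differed between the same groups. Of 6 such markers, 4 (*C1qa*, *C1qb*, *Tyrobp* and *P2ry12*) were higher in Sustained neurons by 1 or more. Their summed rescaled level ranged from 0 to 12222 TPM in Onset neurons (median 46.3) and from 0 to 15438 TPM in Sustained neurons (median 3361). All 6 were detected in some neuron of either group. The oligodendrocyte marker *Cnp*, the astrocyte marker *Slc1a3* and the neuron marker *Rbfox3* were also higher in Sustained neurons, whereas the neuron markers *Snap25* and *Stmn2* were higher in Onset neurons. The summed rescaled level of the 6 neuron markers had a median of 3311 TPM in Onset neurons (203 to 6211) and 2313 TPM in Sustained neurons (510 to 4806). Among the 17 Onset and 3 Sustained neurons without any microglia marker, *Atp6ap1* (−1.62), *Atp6v1a* (−0.56) and *Atp6v1e1* (−0.028) turned their direction. Beyond this, the part of microglial RNA or of the other markers in the differences was not tested. Oligodendrocyte markers also differed: *Mbp* was higher in LOCs than in pLSOs by 1 or more, and the sum over 6 markers had medians of 794 rescaled TPM in pLSOs (0 to 50887) and 1470 in LOCs (8.21 to 39589). Their part in the differences between pLSOs and LOCs was not tested.

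**Figure D5:**
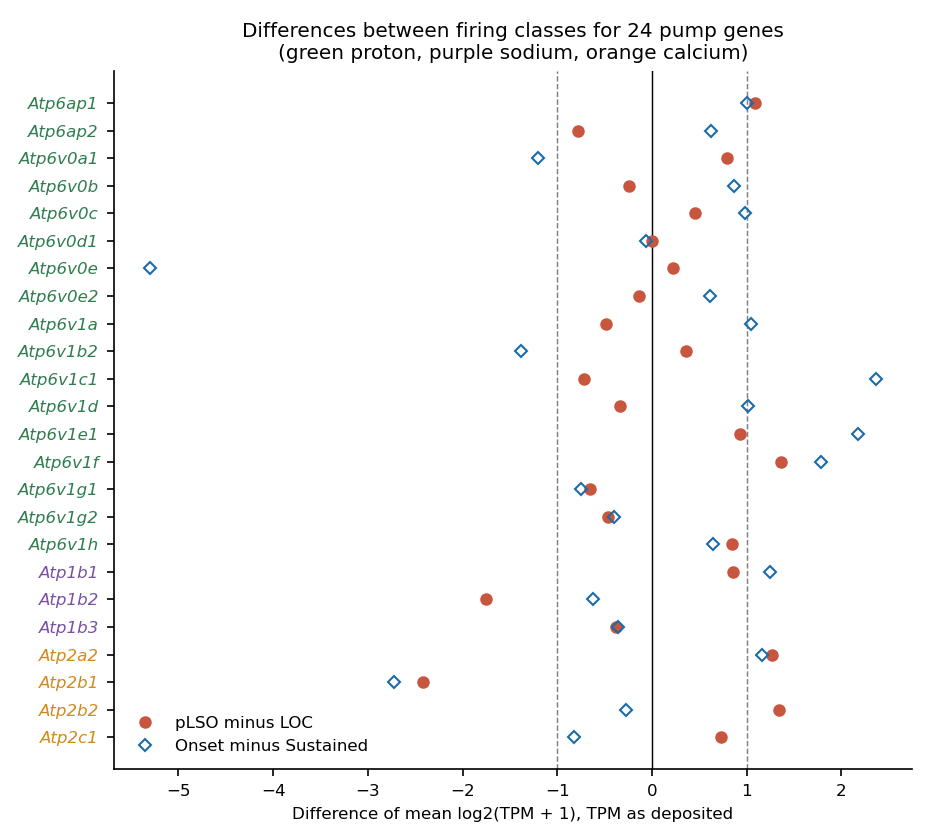
Difference of mean log2(TPM + 1) of deposited values (x axis) for the 24 pump genes described singly (y axis), with filled circles for pLSO minus LOC (52 and 28 neurons), open diamonds for Onset minus Sustained (41 and 11 neurons) and dashed lines at −1 and 1. *Atp2b1* lies left of −1 in both comparisons, and *Atp6v0e* at −5.30 only in the second. Since 1 read is worth a different TPM for each gene, sizes are not compared between genes.

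NCs gave the background of the method. Of the 29 members that passed the filter over neurons and NCs, 20 were higher in neurons by 1 or more in mean log2(TPM + 1) and 0 were higher in NCs. Plain means gave another order for some members. The mean TPM of *Atp6v1g2* was 2.56-fold higher in NCs (1.68-fold on the rescaled scale) and that of *Atp2b2* 2.77-fold higher (1.52-fold on the rescaled scale). For *Atp6v1g1* the mean was 1.50-fold higher in NCs as deposited, and 1.20-fold higher in neurons when rescaled (585 against 487 TPM). Without the highest NC, the NC means were 15.4 TPM for *Atp6v1g2* and 8.71 TPM for *Atp2b2*, against 214 and 22.6 TPM in neurons. Among all 9608 genes, 30.7% were higher in neurons and 1.34% in NCs. The 20 included 16 of 18 proton pump genes, *Atp1b1*, *Atp2b1* and *Atp2c1*. *Atp6v0c* differed by 7.82, *Atp6v0d1* by 7.57 and *Atp1b1* by 5.07. *Atp1b3*, *Atp2c1*, *Atp6v0d1*, *Atp6v0e* and *Atp6v1h* had no value in any of the 8 NCs, whose low depth limits this. *Atp1b2* had a value in 1 of 8 NCs (14 TPM). *Atp2a2* and *Atp2b2* each had a value in 3 of 8 NCs, and neurons exceeded NCs by 0.79 and 0.54, below the limit of 1. Of 6 oligodendrocyte markers, 5 were higher in NCs and *Cnp* was higher in neurons, and the median sum in NCs was 15415 rescaled TPM.

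Pump levels were finally set beside the electrophysiology of the same neurons. Membrane capacitance had a median of 0.071 nF in Onset neurons (0.035 to 0.161) and of 0.037 nF in 27 LOCs with a value (0.012 to 0.159). Input resistance had medians of 41.7 MΩ and 549 MΩ. Across 8 pump measures in each class, the 32 Spearman's correlations with these features lay between −0.19 and 0.41. Only the summed calcium pump level against capacitance in Onset neurons reached an absolute rho of 0.3 (rho 0.41, Pearson's r 0.32, n = 41). Pearson's r also passed this size for *Atp6v0c* against input resistance in Onset neurons (r −0.35, rho −0.14). The same held for *Atp1b1* against input resistance in LOCs (r −0.36, rho −0.19). These values are given as a description, as the neurons of a group share their animals and preparation in an unknown way.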

How the data were processed

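Libraries were made from cytoplasm of single neurons by modified Smart-seq2 and Nextera XT, which are not stranded. The submitters' processing notes name FastQC, Trim Galore 0.4.2, STAR, Picard 1.115, featureCounts and mm10. The deposited score values are TPM that the authors rounded to whole numbers. Names, lengths and coordinates were taken from Gencode vM21, in which 37570 of 38887 genes have a length.

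Whole reads per gene were recovered from the steps between values (within 0.5 TPM) and divided by each gene's own exon length. The recovery was run on simulated data made from the recovered reads and lengths. That run cannot show whether the deposited values follow the same rule. Depth is the sum of recovered reads, and it sets the precision of each share. No count test was run, because each group is 1 sample. Groups are described by shares with exact Clopper-Pearson 95% intervals, means, medians, ranges, differences of mean log2(TPM + 1) and the probability that a random neuron of one group exceeds one of the other. A gene passed the filter when it was detected in 5% or more of all 80 neurons, also for Onset against Sustained neurons. Where NCs were compared, the share was taken over neurons and NCs together. A gene was described singly if it was detected in 25% or more of a class or differed by 1 or more; partner genes were named if they differed by 1 or more. Single values of some members are not reported here. The members, lists and left-out libraries were chosen with earlier results of these data known. Alternatives changed the pseudocount, the measure, the libraries, the scale and the detection limit. Calculations used Python 3.11.15, pandas 2.3.3, NumPy 2.4.6 and SciPy 1.17.1, and figures matplotlib 3.10.9.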

Additional observations from a re-analysis of the deposited data

Results flagged for a closer look

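The 8 libraries that were left out of the comparisons held pump transcripts as well. In 7 of them the summed rescaled level of the proton pump genes was above that of every control used, and in 5 the same held for the sodium pump genes. They comprised 6 libraries labelled as neurons and 2 labelled as NCs. Of the 6 neurons, 4 had fewer recovered reads than any neuron used (the lowest 33917), and both NCs had more reads than every NC used.

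Among the 8 NCs used, a single library stood far from the others in the summed level of the calcium pump genes, with 574 rescaled TPM. The next highest NC had 119 rescaled TPM, and the gap was 0.794 of the whole range, above the limit of 0.526 for 8 values. Chance flags about 1 in 20 groups in this way. This NC had 440 TPM of *Atp2b2* as deposited, the highest value of that gene in any library used.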

How the results depend on the processing

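No paired analysis was possible because the replicate numbers only name neurons in accession order and no label pairs neurons between groups. For pLSOs against LOCs, 5 members were higher in pLSOs and 2 in LOCs. A pseudocount of 10 gave 0 and 1, a ratio of means of 2 or more gave 2 and 7, a limit on the probability of 0.7 or 0.3 gave 0 and 0, and rescaled values gave 8 higher in pLSOs. In neurons without a microglia marker (20 pLSOs and 10 LOCs) the counts were 10 and 5. All labelled libraries left 5 and 2. For Onset against Sustained neurons, 9 and 5 members became 5 and 3 with a pseudocount of 10 and 2 and 2 with the limit on the probability. All labelled libraries gave 5 higher in Onset neurons, and neurons without a microglia marker gave 9 higher in Sustained neurons. Apart from the rescaled values, the shares of all genes under these alternatives were not computed. The counts are therefore not set against all genes, and smaller groups can by themselves raise them. In these alternatives the cause was not tested. Sodium pump genes detected in 25% or more of neurons were 4 at 1 TPM and 2 at 50 RPM. Of 126 values of 18 named differences, 74 stayed, 46 moved and 6 turned their direction. On the log2 ratio of means, those that turned were *Atp6ap1* (−0.20) and *Atp6v1f* (−0.16) for pLSOs minus LOCs, and *Atp6v0a1* (0.55) for Onset minus Sustained neurons. In neurons without a microglia marker they were *Atp6ap1* (−1.62), *Atp6v1a* (−0.56) and *Atp6v1e1* (−0.028). Depth limits statements on absence, as NCs had a median of 25286.5 reads. The neurons without a microglia marker, the 50 RPM and the left-out Onset neuron were chosen after seeing the data.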
